A study of Mus musculus with 28 samples.

Results

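Genes of collagen crosslinking and processing are followed here through the healing of a skin wound in mice. The members were listed by gene symbol and are 10 of the 29068 genes in the deposited table of raw counts. They are the lysyl oxidases Lox, Loxl1, Loxl2, Loxl3 and Loxl4, the lysyl hydroxylases Plod1, Plod2 and Plod3, the prolyl 4-hydroxylase subunit P4ha1, and Serpinh1, the collagen chaperone also known as HSP47. All 10 members passed the filter on low counts, as did 18107 genes in all.

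The data are 28 libraries of total RNA, taken from MLKL+/+ mice at 7 times with 4 libraries per time. The mice were C57BL/6J animals of both sexes, 8 weeks old at wounding, and the labels give no treatment beside the wound, a 6 mm punch through the dorsal skin down to the fascia. The groups are Day0, which the labels call the control, and the wound days 3, 5, 7, 10, 12 and 14. The paper calls the first time day 1, the day of injury, and the name in the labels is kept here. The whole wound site was taken, with the scab and the margin, so each library mixes all cell types of that tissue. The design text speaks of 5 repeats per time, of which 4 are analysed here. The labels do not say whether the 4 libraries of a day are separate mice, so the p-values below measure the spread between these libraries, which may be technical in part.

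Collagen chains are modified while they are still in the endoplasmic reticulum. Prolyl 4-hydroxylases make the hydroxyproline that keeps the triple helix stable at body temperature, lysyl hydroxylases make the hydroxylysine that later carries sugars and crosslinks, and HSP47 binds the folded helix and travels with it towards the Golgi. After secretion, the copper-dependent lysyl oxidases turn lysine and hydroxylysine side chains into reactive aldehydes, which join neighbouring collagen or elastin molecules, and these bonds give healing skin and scars their strength.

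Each library held between 36706513 and 40655764 counts, with a median of 39499595. The 4 Day0 libraries differed much more from each other than those of any wound day, with a biological coefficient of variation of 26.4% against 5.70% to 10.8%. The edgeR test used below fits 1 spread per gene over all 28 libraries. For genes that vary more at Day0, its p-values against Day0 can therefore be too small. The Day0 libraries lay in 2 pairs. Day0 replicates 2 and 3 had summed levels of 8 fibroblast markers of 4240 and 4119 FPKM (fragments scaled to gene length and to the library's total), and replicates 1 and 4 had 1787 and 1329. The summed level of 6 skeletal muscle markers ran the other way, at 11225 and 11626 FPKM in replicates 2 and 3 and 16955 and 18049 in replicates 1 and 4, against 2405 to 6504 in all wound libraries. The part of this mixture in the results below was not tested, and fewer cells of a type and less RNA per cell cannot be told apart in such bulk tissue. Because all comparisons with Day0 share these 4 libraries, the members and the lists of collagen genes, substrates and hypoxia targets were also computed with either pair alone as Day0.

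Most members were more abundant in the wound than at Day0 until day 10, and fewer were on days 12 and 14. On day 3, 9 of 10 members were higher and 0 lower by edgeR's quasi-likelihood test at an adjusted p under 0.05, where 31.8% of all genes tested were higher and 34.8% lower. The count was again 9 higher and 0 lower on day 5 (all genes 29.0% and 30.6%) and on day 7 (25.6% and 24.8%), and 8 higher and 0 lower on day 10 (23.5% and 26.9%). On day 12, 5 were higher and 0 lower (21.7% and 25.6%). On day 14, 1 was higher and 5 were lower (28.2% and 34.5%), the higher one being Plod2. With Day0 replicates 1 and 4 alone, Loxl1, Loxl2 and Serpinh1 were also higher on day 14, and leaving out Day0 replicate 1 or 2 also added 1 member. The median log2 fold change of the members was 1.07, 1.19, 1.04, 0.94, 0.29 and -0.35 on the 6 days in order, and that of all genes lay between -0.06 and 0.00 on each. The criteria of the study, a log2 fold change over 1.5 with P under 0.05, left 3, 3, 2, 2, 0 and 0 members higher (all genes 6.50%, 5.61%, 4.66%, 4.33%, 3.89% and 5.15%) and 0 lower (12.4%, 8.31%, 4.74%, 5.14%, 3.51% and 8.83%). By log2 CPM (counts scaled to library size), all 4 libraries were above all 4 of Day0 for 9, 9, 9, 8, 4 and 1 members (all genes 28.2%, 23.0%, 19.9%, 19.5%, 18.6% and 23.4%) and below for 0, 0, 0, 0, 0 and 4 (28.6%, 23.2%, 19.3%, 21.9%, 20.2% and 27.3%). A joint edgeR test of all 7 days gave an adjusted p under 0.05 for 10 of 10 members, which was also so for 89.5% of all genes. In that test Loxl3 ranked 150 and Plod2 ranked 244 among the 18107 genes.

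**Figure D1:**
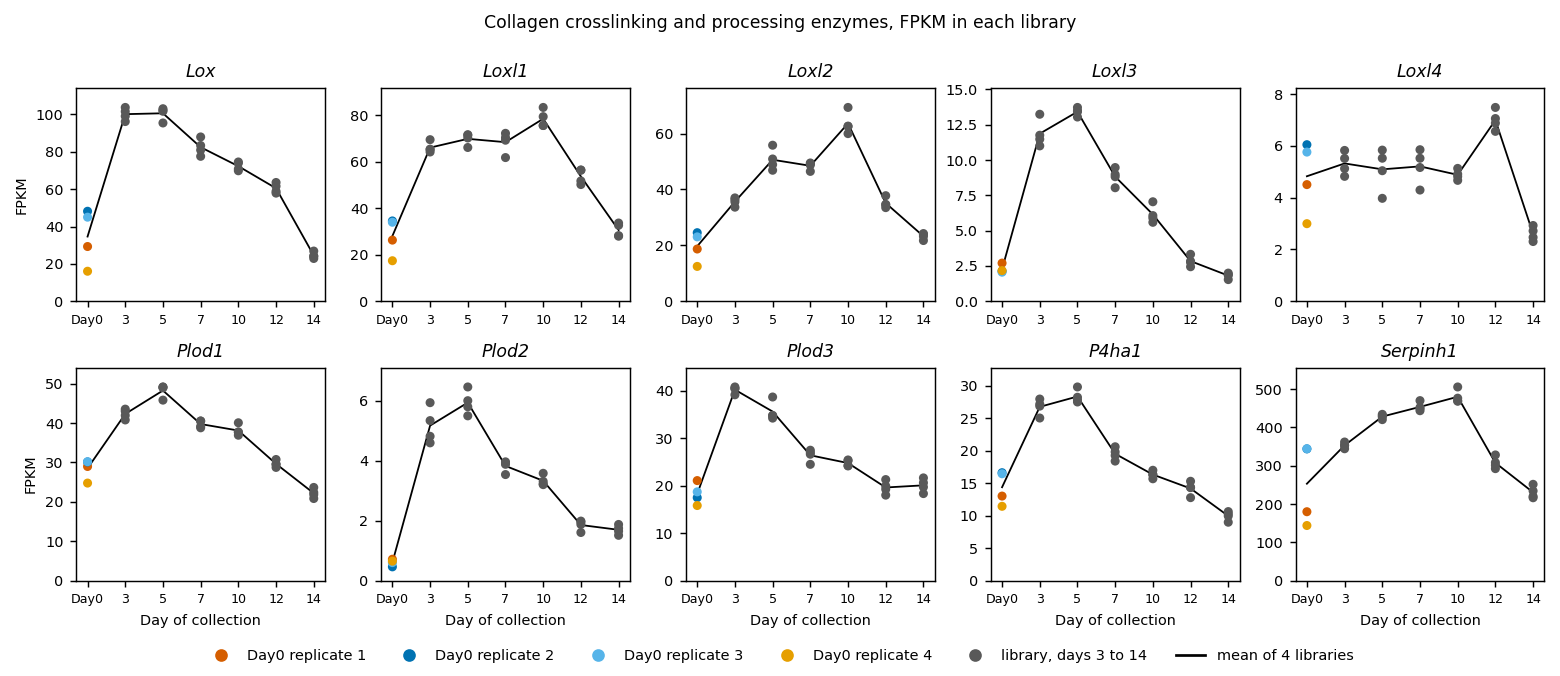
Level of each of the 10 genes in each library, as FPKM on a linear axis from 0, by day of collection. Each point is a library, Day0 libraries are coloured by replicate number, and the line joins the means of 4 libraries. Relative to their own Day0 means, Loxl3 and Plod2 climb most. Loxl4 stays near its Day0 level until day 10, and most genes fall from day 10 to day 14.

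The 5 lysyl oxidases share one catalytic domain, and the stretch of coding sequence around its copper site is shown because it is what makes them one family. Loxl1, Loxl2, Loxl3 and Loxl4 were read from GENCODE vM21 transcripts (GRCm38, the same assembly as the mm10 of the submitters' notes). Capitals mark the histidine codons of the site, 5′ to 3′ on the coding strand.
Loxl1: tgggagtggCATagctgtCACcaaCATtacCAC
Loxl2: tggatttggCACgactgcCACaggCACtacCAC
Loxl3: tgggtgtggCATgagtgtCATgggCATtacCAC
Loxl4: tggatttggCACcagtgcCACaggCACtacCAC
In each gene an intron splits these 33 bases after base 23, in the coding part of 2 neighbouring exons. The pieces lie in exons 3 and 4 of Loxl1 (chr9:58294359-58294381 and chr9:58293720-58293729, minus strand), exons 10 and 11 of Loxl2 (chr14:69682316-69682338 and chr14:69689028-69689037, plus strand), exons 10 and 11 of Loxl3 (chr6:83049995-83050017 and chr6:83050116-83050125, plus strand) and exons 11 and 12 of Loxl4 (chr19:42599877-42599899 and chr19:42598807-42598816, minus strand). All 4 carry 4 histidine codons at the same places. Loxl2 and Loxl4 were the most alike, with 31 of 33 bases identical, and the other pairs shared 21 to 25. The longest run of identical bases between the transcripts of any 2 lysyl oxidases or any 2 lysyl hydroxylases was 32 bases.

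Lox, the founding member, which crosslinks fibrillar collagen and elastin, reached its plateau by day 3. Its level at Day0 was 29.3, 48.2, 45.0 and 16.1 FPKM in replicates 1 to 4. The day 3 libraries had 99.1, 104, 96.2 and 102 FPKM, and those of day 5 had 103, 102, 102 and 95.4. All 8 of these libraries were higher than every Day0 library, and the values of days 3 and 5 overlapped. Lox was 3.01-fold higher than Day0 on day 3 (log2 1.59 ± 0.18 SE, n = 4 against 4, edgeR adjusted p = 6.85e-09) and 2.99-fold higher on day 5 (log2 1.58, edgeR adjusted p = 1.02e-08). The means of days 7, 10 and 12 were 82.5 ± 4.36, 72.3 ± 2.31 and 60.5 ± 2.60 FPKM (SD, n = 4). Each day's libraries lay under those of the day before, but none of these single steps passed the test over 28 libraries (edgeR adjusted p from 0.11 to 0.304). The spread in that test includes Day0. With only the 8 libraries of both days the steps to days 7, 10 and 12 were called (edgeR adjusted p = 0.000538, 0.000968 and 6.93e-07), and limma-voom, with a weight for each day, called them too (adjusted p = 0.0224, 0.0427 and 0.00144). These days were still above Day0, by 1.25, 1.01 and 0.66 on the log2 scale (0.83, 0.59 and 0.24 with Day0 replicates 2 and 3 alone, 1.85, 1.61 and 1.28 with replicates 1 and 4 alone), although the day 12 call was lost when only the 8 libraries of both days were fitted (edgeR adjusted p = 0.107). By day 14 Lox stood at 24.1, 22.9, 24.1 and 26.9 FPKM, inside the range of Day0. The fitted difference on day 14 fell by 0.63 on the log2 scale (edgeR adjusted p = 0.00252), but it was 0.06 with Day0 replicates 1 and 4 alone (edgeR adjusted p = 0.714) and was not called with the 8 libraries alone (0.124) or by limma on FPKM (0.0672 to 0.125). The fold change from day 12 to day 14 does not use Day0 levels, and there Lox fell by 1.29 (edgeR adjusted p = 1.08e-06), with all 4 day 14 libraries under all 4 of day 12.

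Loxl1, which is tied to elastic fibres, and Loxl2, which acts on basement membrane and fibrillar collagens, had their highest means on day 10. Loxl1 measured 26.3, 34.6, 34.0 and 17.4 FPKM at Day0 and held 66.1 ± 2.34, 69.9 ± 2.56 and 68.5 ± 4.58 on days 3, 5 and 7. On day 10 its libraries read 75.6, 75.6, 83.4 and 79.5 FPKM. By FPKM those 4 were the highest of the series for Loxl1, 2.70-fold over Day0 (log2 1.43 ± 0.13 SE, edgeR adjusted p = 3.39e-10), yet the step from day 7 to day 10 was not called over 28 libraries (log2 0.15, edgeR adjusted p = 0.394), although it was with the 8 libraries of both days alone (log2 0.16, edgeR adjusted p = 0.0304). Loxl2 read 18.7, 24.5, 23.02 and 12.45 FPKM at Day0. Its day 3 libraries had 35.5, 36.96, 33.6 and 36.4 FPKM, and those of day 10 had 62.7, 62.5, 69.3 and 59.97. It climbed in steps, by 0.49 on the log2 scale from day 3 to day 5 (edgeR adjusted p = 0.00276) and by 0.34 from day 7 to day 10 (edgeR adjusted p = 0.0263), with no overlap of libraries at either step. The second of these steps was lost without day 7 replicate 4 or without day 10 replicate 3 (edgeR adjusted p up to 0.0933). On day 10 Loxl2 was 3.12-fold over Day0 (log2 1.64 ± 0.12 SE, edgeR adjusted p = 9.62e-12). Both genes then went down at each step, Loxl1 by 0.64 and 0.79 and Loxl2 by 0.95 and 0.58 on the log2 scale, and on day 14 neither differed from Day0 by more than the spread (Loxl1 log2 0.0014, edgeR adjusted p = 0.993; Loxl2 log2 0.12, edgeR adjusted p = 0.408). Part of the Loxl2 locus lies under an antisense gene, Gm27177, and the strand setting of the counting is not given in the sources used here.

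Loxl3, a less abundant lysyl oxidase with scavenger receptor repeats like Loxl2 and Loxl4, had the largest rise of the family. It was at 2.70, 2.13, 2.06 and 2.17 FPKM at Day0. The day 3 libraries gave 11.002, 13.2, 11.5 and 11.8 FPKM, and 13.4, 13.5, 13.7 and 13.0 came from day 5. There was no overlap with Day0, and day 5 was 6.09-fold higher (log2 2.61 ± 0.10 SE, edgeR adjusted p = 4.22e-18). Its 4 Day0 libraries did not follow the pairs seen for Lox, and the day 5 change was 2.73 with replicates 2 and 3 and 2.51 with replicates 1 and 4. Loxl3 then dropped by 0.65, 0.57, 1.21 and 0.63 on the log2 scale at the 4 successive steps to day 14, each with all 4 later libraries under all 4 earlier ones and an edgeR adjusted p between 8.16e-11 and 2.21e-05. On day 14 it read 1.89, 1.84, 1.53 and 1.99 FPKM, all under Day0 (log2 fell by 0.45, edgeR adjusted p = 0.000395), a call that limma-voom did not make (adjusted p = 0.0533). Htra2 lies partly over Loxl3 on the other strand.

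Loxl4 was the exception in the family until day 12. Its level was 4.50, 6.05, 5.76 and 2.99 FPKM at Day0. The ranges of days 3, 5, 7 and 10 were 4.82 to 5.82, 3.97 to 5.84, 4.29 to 5.85 and 4.67 to 5.13 FPKM. All of these wound libraries sat inside the Day0 range, and the edgeR adjusted p was between 0.228 and 0.843 on the 4 days. A difference was called on days 3, 5 and 7 when Day0 replicates 1 and 4 stood alone (log2 0.60, 0.49 and 0.46), and a lower level was called on day 10 with replicates 2 and 3 alone (log2 -0.32, edgeR adjusted p = 0.0173). On day 12 the libraries rose to 7.48, 6.56, 7.05 and 6.88 FPKM. This was 1.35-fold over day 10 with no overlap (log2 0.43 ± 0.14 SE, edgeR adjusted p = 0.0169), although the adjusted p was 0.0548 without day 12 replicate 1. Against Day0 the day 12 gain of 0.39 (edgeR adjusted p = 0.0246) was lost without Day0 replicate 4 or day 12 replicate 1 (edgeR adjusted p up to 0.0832). It was also lost with the 8 libraries alone (0.39, edgeR adjusted p = 0.146) and with Day0 replicates 2 and 3 alone (0.11, edgeR adjusted p = 0.458). Day 14 brought Loxl4 to 2.47, 2.30, 2.72 and 2.92 FPKM, its lowest values, 1.41 lower than day 12 on the log2 scale (edgeR adjusted p = 1.33e-08) and 1.02 lower than Day0 (edgeR adjusted p = 8.5e-07).

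**Figure D2:**
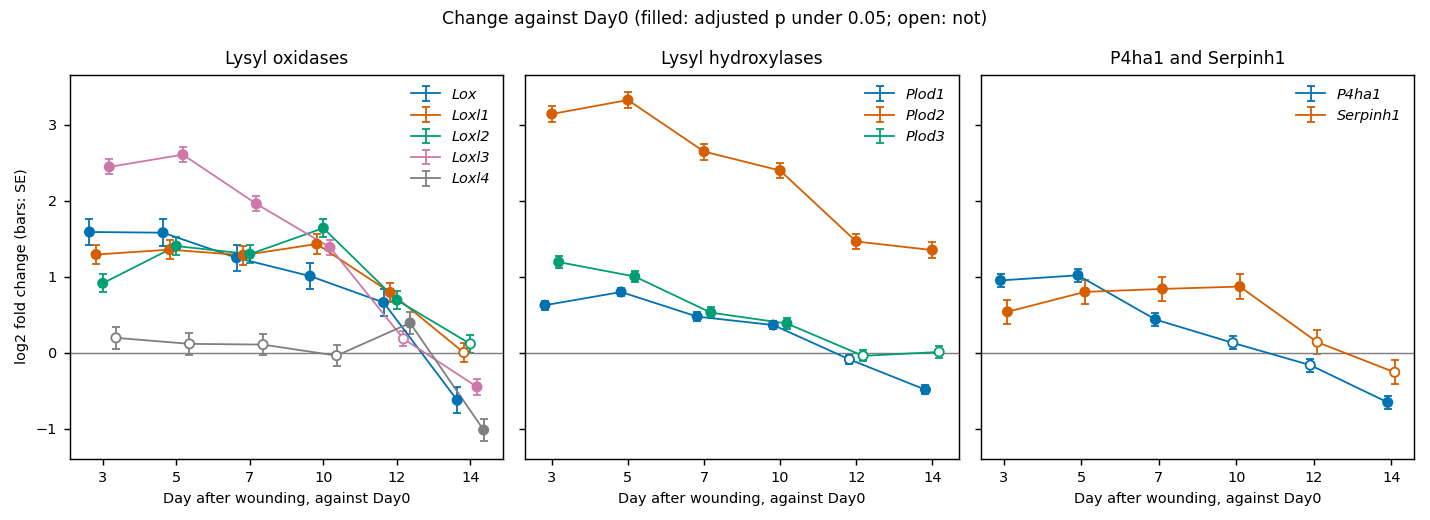
log2 fold change of each gene on days 3 to 14 against Day0, with bars for the SE of the edgeR fit over 28 libraries, in panels for lysyl oxidases, lysyl hydroxylases, and P4ha1 with Serpinh1. Filled points have an adjusted p under 0.05 and open points do not. Plod2 stands highest on every day, from 3.33 on day 5 to 1.35 on day 14, and Loxl4 has open points near 0 until day 10.

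Because FPKM are per length, the family can also be described by its make-up, as the share of each member in the FPKM sum of the 5 lysyl oxidases in a library. Lox held 37.5% ± 4.81 at Day0 (SD, n = 4), 45.7% ± 0.510 on day 3 and 29.6% ± 1.13 on day 14. Loxl2 moved the other way, from 22.4% ± 1.59 at Day0 to 16.3% ± 0.323 on day 3 and 28.2% ± 0.806 on day 10. Lox had the largest mean share of the family except on days 10 and 14. On day 10 Loxl1 was at 34.8% ± 0.876 and Lox at 32.1% ± 0.805, while on day 12 Lox was again ahead, at 38.0% ± 1.55 against 33.8% ± 1.45. Loxl3 went from 2.82% ± 1.17 at Day0 to 5.60% ± 0.0896 on day 5 and back to 2.20% ± 0.287 on day 14. Loxl4 was below its Day0 share of 5.47% ± 0.295 in every wound library, between 2.12% ± 0.314 on day 5 and 4.39% ± 0.105 on day 12. Over both families, 48 pairs of gene and wound day were compared with Day0 by an exact two-sided permutation test, for which 4 against 4 libraries cannot go below p = 0.0286. In 25 of the 48 pairs the libraries did not overlap, and the smallest p adjusted over the 48 was 0.0549, so none passed 0.05.

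**Figure D3:**
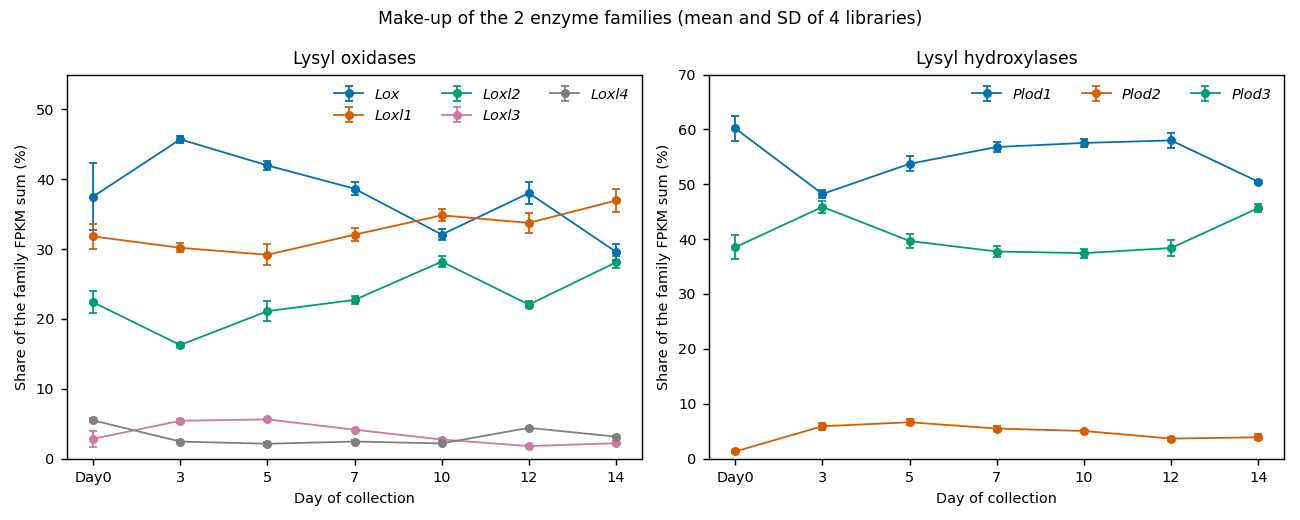
Share of each gene in the FPKM sum of its family, in percent, for the 5 lysyl oxidases (left) and the 3 lysyl hydroxylases (right), as mean and SD of 4 libraries by day of collection. Lox leads on day 3 at 45.7% and Loxl1 leads on day 14 at 36.96%, while Plod2 rises from 1.29% at Day0 to 6.61% on day 5.

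Among the lysyl hydroxylases, Plod2, whose product modifies the telopeptide lysines behind the stable crosslinks typical of scars, rose most of all 10 members. It was scarcely present at Day0, at 0.716, 0.463, 0.604 and 0.652 FPKM. The day 3 libraries read 4.81, 5.33, 4.59 and 5.93 FPKM, and 6.45, 5.49, 5.99 and 5.79 were read on day 5. Every library of both days was far above Day0, by 8.83-fold on day 3 (log2 3.14 ± 0.11 SE, edgeR adjusted p = 1.34e-19) and 10.0-fold on day 5 (log2 3.33 ± 0.11 SE, edgeR adjusted p = 1.03e-19). Plod2 then stepped down by 0.68 to day 7 (edgeR adjusted p = 1.97e-06), by 0.25 to day 10 (edgeR adjusted p = 0.0415) and by 0.93 to day 12 (edgeR adjusted p = 7.83e-09) on the log2 scale. The small middle step was lost without any one of 6 of the 8 libraries (edgeR adjusted p up to 0.107) and with library size as the only scaling (0.102). Day 12 gave 1.61, 1.88, 1.95 and 1.99 FPKM and the last day 1.87, 1.75, 1.51 and 1.65, and the 2 did not differ beyond the spread (log2 -0.11, edgeR adjusted p = 0.363). All 4 day 14 libraries were still above all of Day0, 2.55-fold higher (log2 1.35 ± 0.10 SE, edgeR adjusted p = 9.57e-12), and the gain was 1.55 with Day0 replicates 2 and 3 and 1.25 with replicates 1 and 4. The FPKM of Plod2 imply a gene length of 9445 bases, while its longest GENCODE transcript has 3663, so its level per length, though not its change, depends on that length.

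Plod1, the broadly expressed lysyl hydroxylase of the helical region, and Plod3, which also adds sugars to hydroxylysine, changed far less. Plod1 was 28.98, 30.1, 30.2 and 24.8 FPKM at Day0 and 45.8, 48.9, 49.1 and 49.1 on day 5. The day 5 libraries were all higher, by 1.74-fold (log2 0.80 ± 0.06 SE, edgeR adjusted p = 3.43e-12). Plod1 had come back to Day0 by day 12 (29.6 ± 0.83 FPKM, log2 -0.09, edgeR adjusted p = 0.226) and was under it on day 14 in all 4 libraries, at 20.9, 21.9, 23.7 and 22.4 FPKM (log2 fell by 0.49, edgeR adjusted p = 4.75e-08). Plod3 was 21.1, 17.5, 18.7 and 15.8 FPKM at Day0 and already at its highest on day 3, with 40.4, 40.5, 40.8 and 39.2. That was 2.29-fold over Day0 (log2 1.19 ± 0.07 SE, edgeR adjusted p = 6.86e-14). It was lower again by 0.48 from day 5 to day 7 (edgeR adjusted p = 1.22e-05) and by 0.43 from day 10 to day 12 (edgeR adjusted p = 3.57e-05), and on days 12 and 14 it did not differ from Day0 beyond the spread (log2 -0.04 and 0.01, edgeR adjusted p = 0.673 and 0.922). Znhit1 overlaps Plod3 on the opposite strand.

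The make-up of the lysyl hydroxylases followed these differences, on the gene lengths that the deposited FPKM imply. Plod1 made up 60.2% ± 2.34 of the family sum at Day0 and 48.2% ± 0.658 on day 3 (SD, n = 4). Plod3 took 38.5% ± 2.17 at Day0 and 45.9% ± 1.04 on day 3. Plod2 went from 1.29% ± 0.265 to 5.89% ± 0.676 on day 3 and 6.61% ± 0.578 on day 5, and on each wound day its share was higher in all 4 libraries than in any Day0 library. At the length of each gene's longest GENCODE transcript the mean share of Plod2 would be 3.72% ± 0.734 at Day0, 15.3% ± 1.58 on day 3 and 17.2% ± 1.32 on day 5. The order of Plod1 and Plod3 on days 3 and 14 also turned with the length: Plod1 had the larger mean share by the deposited FPKM, and Plod3 at the longest transcript (46.2% against 38.5% on day 3 and 47.7% against 41.9% on day 14).

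P4ha1, the catalytic subunit of the main prolyl 4-hydroxylase, belonged to the early group. It was 13.0, 16.6, 16.5 and 11.5 FPKM at Day0. It reached 27.2, 27.97, 25.0 and 26.9 FPKM on day 3, with 27.9, 28.2, 27.5 and 29.8 on day 5. Days 3 and 5 were clear of Day0 in every library, 1.93-fold and 2.03-fold higher (log2 0.95 ± 0.08 and 1.02 ± 0.08 SE, edgeR adjusted p = 1.06e-10 and 3.88e-11). P4ha1 then fell at every step, by 0.58, 0.31, 0.29 and 0.49 on the log2 scale (edgeR adjusted p from 4.25e-06 to 0.00672). The step to day 12 was lost for P4ha1 with library size as the only scaling (-0.20, edgeR adjusted p = 0.051) and by limma on log2(FPKM + 1) or log2(FPKM + 0.1) (adjusted p = 0.0817 and 0.0811). On day 10 its libraries, at 16.3, 16.3, 17.0 and 15.7 FPKM, were no longer distinct from Day0 (log2 0.13, edgeR adjusted p = 0.21), although the gain was called without Day0 replicate 2 (edgeR adjusted p = 0.0438) and with Day0 replicates 1 and 4 alone (log2 0.36, edgeR adjusted p = 0.000284). By day 14, at 9.97, 9.01, 10.3 and 10.6 FPKM, all were under Day0 (log2 fell by 0.65, edgeR adjusted p = 1.7e-07).

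P4ha1 is known as a target of hypoxia-inducible factor, so 12 other well-known targets of that factor were counted beside it. On day 3, 9 of the 12 were higher and 2 lower, with Slc2a1, a glucose transporter, at log2 1.57 and Ndrg1, a stress-response gene, at -0.61. From day 5 to day 14 the counts of higher and lower targets were 9 and 1, 4 and 3, 3 and 5, 0 and 8, and 1 and 8. The median of the list was 0.68 on days 3 and 5 and 0.07, -0.14, -0.36 and -0.39 on the later days, so it was above the median of all genes early and under it from day 10. Of all genes, 31.8%, 29.0%, 25.6%, 23.5%, 21.7% and 28.2% were higher on the 6 days and 34.8%, 30.6%, 24.8%, 26.9%, 25.6% and 34.5% lower. With Day0 replicates 2 and 3 alone the day 10 median of the targets was 0.17, with 4 higher and 3 lower. The members did not share 1 course beside this list. On days 12 and 14 P4ha1 was at log2 -0.16 and -0.65, and Plod2 at 1.46 and 1.35. A part of hypoxia in the course of P4ha1 or any other member was not tested.

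Promoter sequence was at hand for 5 of the 10 members, Loxl4, Plod1, Plod3, P4ha1 and Serpinh1 (RefSeq, GRCm38.p6). The 250 bases before the start are shown for P4ha1, whose mean was highest on day 5, and for Serpinh1, whose mean was highest on day 10. Capitals mark the letters ACGTG and GCGTG, the core of the hypoxia response element, on either strand.
P4ha1: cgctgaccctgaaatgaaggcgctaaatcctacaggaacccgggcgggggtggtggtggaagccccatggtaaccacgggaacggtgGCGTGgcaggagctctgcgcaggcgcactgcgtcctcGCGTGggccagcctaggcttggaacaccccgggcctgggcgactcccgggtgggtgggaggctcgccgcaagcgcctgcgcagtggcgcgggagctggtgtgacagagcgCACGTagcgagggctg
Serpinh1: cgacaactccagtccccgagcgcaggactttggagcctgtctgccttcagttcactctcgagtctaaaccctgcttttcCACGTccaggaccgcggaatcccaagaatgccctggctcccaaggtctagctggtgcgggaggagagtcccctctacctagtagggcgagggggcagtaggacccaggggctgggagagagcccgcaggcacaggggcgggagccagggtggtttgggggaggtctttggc
The P4ha1 window lies at chr10:59323046-59323295 on the plus strand and that of Serpinh1 at chr7:99353240-99353489 on the minus strand. P4ha1 holds GCGTG 2 times, from bases -163 and -126 before the start, and ACGTG 1 time on the reverse strand from base -16. Serpinh1 holds ACGTG 1 time on the reverse strand, from base -171. Each of the other 3 windows held at least 1 of these motifs, which overlapped nowhere. Of 32851 promoter windows in the table, 16.6% held ACGTG and 28.2% held GCGTG. The share of windows with either motif was not counted, so the count for the members has no background beside it. TTCNNGAA, the core of the heat shock element, was searched because HSP47 is a heat shock protein. It was in 0 of the 5 windows and in 7.17% of all. A match of letters is a description and not a site of binding.

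Serpinh1 had the highest mean FPKM of the members on every day, and its changes depended on which Day0 libraries were used. At Day0 it was 180.2, 344, 345 and 144 FPKM. The means of days 3, 5 and 7 were 353 ± 7.17, 428 ± 5.89 and 454 ± 11.4 FPKM (SD, n = 4). The day 10 libraries gave 469, 469.9, 506 and 477 FPKM. Day 10 was 1.83-fold over Day0 (log2 0.87 ± 0.16 SE, edgeR adjusted p = 5.18e-05), with a log2 change of 0.43 against replicates 2 and 3 and 1.51 against replicates 1 and 4. The day 3 gain of 0.54 (edgeR adjusted p = 0.00439) came down to 0.10 with replicates 2 and 3 (edgeR adjusted p = 0.186), and was also lost with the 8 libraries of both days alone (0.132). On day 12, at 328, 293, 309 and 301 FPKM, Serpinh1 was 0.73 lower than on day 10 (edgeR adjusted p = 0.000566). On day 14 it was 220.3, 217, 252 and 234 FPKM, between the Day0 pairs. The day 14 difference fell by 0.26 with all 4 (edgeR adjusted p = 0.163), fell by 0.70 against replicates 2 and 3 and was 0.46 against replicates 1 and 4, so its sign turned with the pair.

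For the whole set, the choice of Day0 pair moved counts little before day 12. With replicates 2 and 3 alone, 8, 9, 9, 8, 5 and 1 members were higher on the 6 days and 0, 0, 0, 1, 3 and 7 lower. With replicates 1 and 4 alone, 10, 10, 10, 9, 6 and 4 were higher and 0, 0, 0, 0, 0 and 4 lower. On day 3 Lox changed by 1.17 with the first pair and 2.24 with the second, Plod3 by 1.21 and 1.22 and Plod2 by 3.34 and 3.02. Thus on day 3 Plod3 gave nearly the same change with either pair and Plod2 and Loxl3 a somewhat larger one with replicates 2 and 3, whereas Lox, Serpinh1, Loxl1, Loxl2, Loxl4, P4ha1 and Plod1 gave a larger one with replicates 1 and 4. On day 14 the sign turned with the pair for Lox, Loxl1, Loxl2 and Serpinh1. Plod2 was higher on day 14, and Loxl3, Loxl4, Plod1 and P4ha1 lower, with either pair.

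**Figure D4:**
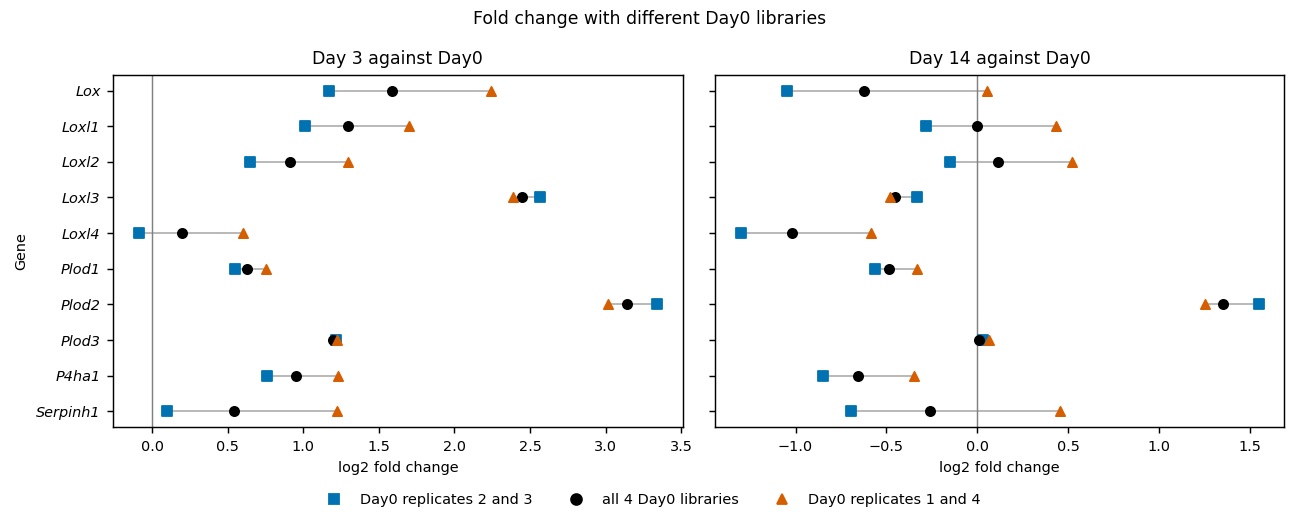
log2 fold change of each gene on day 3 (left) and day 14 (right) against all 4 Day0 libraries (circles), Day0 replicates 2 and 3 (squares) or Day0 replicates 1 and 4 (triangles). For Serpinh1 the values spread from 0.10 to 1.22 on day 3 and from -0.70 to 0.46 on day 14, while the 3 values of Plod3 nearly coincide.

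Fold changes between neighbouring wound days do not use Day0 levels, although their test takes its spread from all 28 libraries, Day0 included. From day 3 to day 5, 2 members were higher (Loxl2 and Plod1) and 0 lower (all genes 12.9% and 11.4%). The Plod1 step of 0.17 was lost without any one of 7 of the 8 libraries (edgeR adjusted p up to 0.175), and the Plod3 step of -0.19 (edgeR adjusted p = 0.0592) was called without any one of 5 of them (edgeR adjusted p down to 0.0194). The Plod3 step was also called with the 8 libraries alone (edgeR adjusted p = 0.0205), as was the Serpinh1 step of 0.26 (0.000553), for which the fit over 28 libraries gave an edgeR adjusted p of 0.251. From day 5 to day 7, 0 were higher and 5 lower, namely Loxl3, Plod1, Plod2, Plod3 and P4ha1 (all genes 13.9% and 14.6%). From day 7 to day 10, 1 was higher (Loxl2) and 3 were lower (Loxl3, Plod2 and P4ha1), where 14.3% and 18.0% of all genes were. Loxl1, Loxl2 and Serpinh1 had their highest means on day 10, when Loxl3, Plod2 and P4ha1 were already descending. The steps of Loxl1 (log2 0.15, edgeR adjusted p = 0.394) and Serpinh1 (log2 0.03, edgeR adjusted p = 0.909) to day 10 were not called over 28 libraries. The Serpinh1 libraries of days 7 and 10 overlapped. From day 10 to day 12, 1 was higher (Loxl4) and 8 were lower, all of the rest but Lox (all genes 18.7% and 20.7%). Lox had a log2 change of -0.35 there (edgeR adjusted p = 0.11) although its 4 libraries were under those of day 10 and the step was called with these 8 libraries alone (edgeR adjusted p = 6.93e-07). From day 12 to day 14, 0 were higher and 8 lower, all but Plod2 and Plod3 (all genes 19.9% and 25.3%), of which Serpinh1 at -0.40 (edgeR adjusted p = 0.0446) was lost without any one of 7 of the 8 libraries (edgeR adjusted p up to 0.12) and with DESeq2 size factors or the upper quartile in edgeR (adjusted p = 0.0705 and 0.0826). By the criteria of the study 0 members passed at any of the 5 steps in either direction, where 2.23%, 2.50%, 1.39%, 3.47% and 0.790% of all genes were higher and 0.685%, 1.16%, 3.22%, 2.54% and 2.78% lower.

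The members were also set against the main collagens, as the log2 ratio of a member's counts to the summed counts of Col1a1, Col1a2 and Col3a1, the chains of the fibrillar collagens of skin. Those 3 genes took 2.15%, 4.79%, 4.62% and 1.21% of counts in Day0 replicates 1 to 4. Their share was 1.72% to 1.90% in the day 3 libraries, 5.02% to 5.57% in those of day 10 and 1.59% to 1.82% in those of day 14. Col1a1 was lower than Day0 on day 3 (log2 fell by 1.11, edgeR adjusted p = 0.000139), when 9 members were higher. Its day 3 libraries, at 762 to 872 FPKM, lay inside the Day0 range of Col1a1, 677 to 2742, and the log2 change was -1.67 with Day0 replicates 2 and 3 (edgeR adjusted p = 1.36e-18) and -0.13 with replicates 1 and 4 (edgeR adjusted p = 0.395). On day 3 all 10 members had a ratio above every Day0 library (14.3% of all genes were above and 8.10% below), with mean differences from 0.80 for Loxl4 and 1.19 for Serpinh1 to 3.00 for Loxl3 and 3.70 for Plod2. In every day 3 library each member thus had more transcript per collagen transcript than in any Day0 library. On day 5, 5 members were above and 0 below (all genes 4.42% and 17.0%).

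On day 7, Lox and Plod2 were above and Loxl4 was below (all genes 1.98% and 34.5%). On day 10, Loxl1, Loxl2 and Plod2 were above and Loxl4 and P4ha1 below (1.76% and 36.5%). On day 12, Lox alone was above and 0 were below (2.00% and 13.0%), and on day 14, Loxl1, Loxl2, Plod2 and Serpinh1 were above and 0 below (14.6% and 4.13%). Plod2 was 1.80 higher than Day0 on this ratio on day 7 and 1.56 higher on day 10. P4ha1 fell by 0.71 and Loxl4 by 0.84 on day 10. Against replicates 2 and 3 alone the day 10 differences were 2.51 for Plod2, -0.16 for P4ha1 and -0.41 for Loxl4, and against replicates 1 and 4 alone 0.60, -1.26 and -1.27. On day 3 all 10 differences were above 0 with either pair, from 1.23 for Loxl4 to 4.66 for Plod2 with the first and from 0.37 to 2.74 for the same genes with the second. These are exact two-sided permutation tests over 60 pairs of member and day, of which 28 did not overlap. The smallest adjusted p was 0.0612, so none passed 0.05. The Day0 libraries were again in pairs on this ratio, with replicates 1 and 4 above replicates 2 and 3 for all 10 members.

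**Figure D5:**
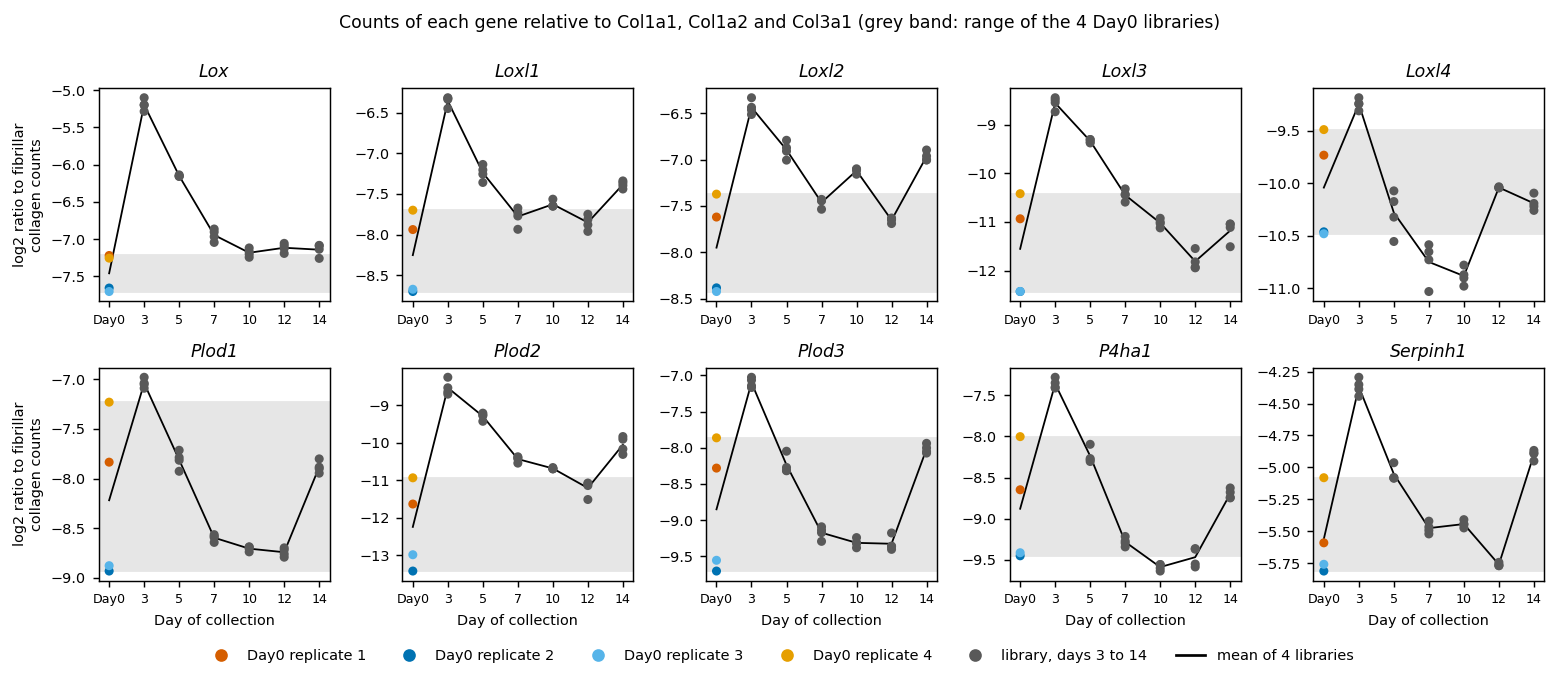
log2 ratio of the counts of each gene to the summed counts of Col1a1, Col1a2 and Col3a1 in each library, by day of collection. Points are libraries, Day0 libraries are coloured by replicate, the line joins the means of 4, and the grey band is the range of the Day0 libraries. All 10 genes lie above the band on day 3, and P4ha1 and Loxl4 lie below it on day 10.

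The other genes of collagen making were counted from a list of 28, of which 27 were tested. Against Day0, 13 were higher and 4 lower on day 3. The counts of the later days, in order, were 20 and 3, 18 and 3, 16 and 3, 10 and 5, and 2 and 17. Their median log2 fold change was 0.12, 0.49, 0.51, 0.50, 0.06 and -0.55 on these days, beside 1.07, 1.19, 1.04, 0.94, 0.29 and -0.35 for the 10 members. Of all genes, 31.8% were higher and 34.8% lower on day 3, and 28.2% and 34.5% on day 14. With Day0 replicates 2 and 3 alone the list had 28 genes tested, of which 12 were higher and 10 lower on day 3 and 2 and 18 on day 14. With replicates 1 and 4 alone, 20 were higher and 3 lower on day 3 and 5 and 13 on day 14. P4ha3, another catalytic subunit of prolyl 4-hydroxylase, had the largest gain of the list from day 3 to day 12, from a mean of 0.569 FPKM at Day0, where its libraries ranged from 0.0924 to 1.33, to 10.2 on day 10 (log2 4.11, edgeR adjusted p = 8.56e-11). P4ha2, the remaining catalytic subunit, was 0.12 on day 3 (edgeR adjusted p = 0.511), where the pairs gave -0.28 and 0.72, and higher by 0.81 on day 5 (edgeR adjusted p = 3.85e-05). P4hb, the shared beta subunit, was higher by 0.74 on day 3 and 0.84 on day 5. The means of P4ha1 and P4ha2 were highest on day 5, and that of P4ha3 on day 10, where its libraries overlapped with those of day 7.

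Fkbp10, an isomerase that works with lysyl hydroxylase 2, was higher by 1.09 on day 3 and 1.68 on day 10 (edgeR adjusted p = 1.25e-16). Bmp1, the protease that cleaves procollagen and activates pro-lysyl oxidase, was higher by 1.00 on day 3 and 1.51 on day 7. Pcolce2, an enhancer of procollagen cleavage, was lowest of the list on each day, down to a log2 change of -3.23 on day 14, and Adamts3, a procollagen peptidase, was highest on day 14 at 2.10. The Day0 libraries of Pcolce2 ranged from 52.4 to 150 FPKM, and those of day 12, at 54.7 to 72.4, lay inside that range. Adamts3 was scarce, with 24 to 49 counts and a mean of 0.109 FPKM at Day0 and 0.510 FPKM on day 14.

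Among 12 substrates and fibre partners, 3 were higher and 4 lower on day 3, and the later days gave 8 and 1, 9 and 1, 10 and 1, 9 and 1, and 5 and 4, beside the same shares of all genes. With Day0 replicates 2 and 3 alone, 4 were higher and 6 lower on day 3 (median log2 -0.19) and 4 and 7 on day 14. With replicates 1 and 4 alone, 6 were higher and 3 lower on day 3 (median 0.27) and 8 and 1 on day 14. Efemp2, the fibulin that brings Lox to elastic fibres, had the largest gain on day 3 at log2 1.88 (edgeR adjusted p = 9.07e-15). Postn, a matricellular protein that helps lysyl oxidase activation, had it on day 10 at log2 4.00 (94.1 FPKM at Day0 and 1559.6 on day 10). Fmod, a small proteoglycan that steers collagen crosslinking, was lowest on day 3 at -3.06. Eln, elastin, came late, at -0.14 on day 3 (edgeR adjusted p = 0.359) and 1.47 on day 12 (edgeR adjusted p = 6.72e-10), when its mean of 101 FPKM was its highest.

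Markers of other cells moved over the same days. The summed level of 5 macrophage markers had a median of 265 FPKM at Day0 and of 585, 534 and 97.2 FPKM on days 3, 5 and 14. That of 5 neutrophil markers was 37.2 FPKM at Day0 and 8000, 3107, 448 and 30.9 FPKM on days 3, 5, 10 and 14. The 8 fibroblast markers had medians of 2953 FPKM at Day0 and of 1750.1, 2148, 2797, 2336, 2819 and 1222 FPKM on the wound days in order. On days 3 and 5, 6 of the 10 members (Lox, Loxl3, Plod1, Plod2, Plod3 and P4ha1) had their 2 highest means. The same days had the 2 highest medians of the macrophage, neutrophil, endothelial and adipocyte sums. The endothelial medians were 241 and 251 FPKM and the adipocyte medians 4566 and 4627 FPKM. No other marker list had its 2 highest medians on these days. The fibroblast median at Day0 lies between the pairs, of 1329 and 1787 and of 4119 and 4240 FPKM, so it matches no library. Of the 8 fibroblast markers, 3, 4, 5, 5, 3 and 2 were higher than Day0 on the 6 wound days and 5, 1, 0, 2, 1 and 6 lower. The 5 myofibroblast markers had medians of 442 FPKM at Day0, 232 on day 3, when 1 was higher and 4 lower, and 565 on day 14, when 1 was higher and 1 lower. The 5 markers of basal keratinocytes had medians of 1885 FPKM at Day0, 1541 on day 3 and 2094.7 on day 14, and 4 of them were lower than Day0 on each of days 3, 5 and 7. The 4 markers of wound-edge keratinocytes had a median of 294 FPKM at Day0 and 1216 on day 3. The 6 hair follicle markers went from 244 FPKM at Day0 to 3.46, 6.64, 562, 100.04, 2179.8 and 1836 on the wound days in order. All 6 were lower on days 3 and 5, 5 were lower on day 10, and all 6 were higher on days 12 and 14. The 5 adipocyte markers summed to 2016.5 FPKM at Day0 and 4566 on day 3, when 1 was higher and 2 lower. The 6 endothelial markers had a median of 147 FPKM at Day0 and 251 on day 5. No marker of these lists was at 0 in all libraries of a day. The part of these shifts in the members' values was not tested.

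The genes most like each member were found by Pearson's r of log2 CPM over the 28 libraries, which share days and Day0 pairs, so the values describe the shape of the time course and carry no p. Lox was closest to Pdgfra, a receptor for platelet-derived growth factor and one of the fibroblast markers summed above (r = 0.99). Pdgfra had the largest log2 fold change of those 8 markers on day 3, at 0.997. Their median was -0.39 on that day, with 3 higher and 5 lower than Day0. Loxl1 was closest to P3h1, a prolyl 3-hydroxylase (0.97), and Loxl2 to Pofut2, Fkbp10 and Bmp1 (0.98, 0.97 and 0.97). Loxl3 followed Hmox1, heme oxygenase, with Slpi and Nlrp3 (0.99, 0.99 and 0.98), and P4ha1 followed Tlr2, Plek and Ninj1 (0.98 each). Plod3 was nearest to Ctsb, cathepsin B (0.98), and Plod2 to Cemip, a hyaluronan-degrading protein (0.97). Serpinh1 had Bmp1 as its closest gene (0.96), and Loxl4 had Arhgap23, Flt4 and Adamtsl1 (0.94, 0.92 and 0.91). Plod1 was nearest to Surf4, a cargo receptor of the secretory pathway (0.98).

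By mean FPKM, Serpinh1 was first on every day and Plod2 last on every day but day 5, when Loxl4 was last. The order rests on the lengths that the FPKM imply, among them 5613 bases for Loxl4, whose longest GENCODE transcript has 3738: at the length of each gene's longest GENCODE transcript, Plod2 would have 1.57 FPKM at Day0, still last, but 13.3 on day 3, beside 11.8 for Loxl3 and 7.99 for Loxl4. On day 10 Loxl3 was at 6.15 and Loxl4 at 4.88 by the deposited FPKM, and at the longest transcript they would be at 6.10 and 7.33. At Day0 the neighbours from Lox (34.6 ± 14.9) through Plod1, Loxl1, Loxl2 and Plod3 to P4ha1 (14.4 ± 2.57) overlapped in their libraries. By the deposited FPKM, no neighbours in the order overlapped on days 7, 10 and 12. Lox was second on every day except days 10 and 14, when Loxl1 was. On day 14, Loxl1 at 30.6 ± 2.95 FPKM led the family, while Lox, Loxl2, Plod1 and Plod3, between 24.5 ± 1.67 and 20.1 ± 1.40, overlapped with their neighbours.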

How the data were processed

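Total RNA was extracted with TRIzol, made into libraries with a VAHTS kit and sequenced. Per the submitters' processing notes, reads were cleaned with fastp, the genome was mm10 and R 3.2.0 was used. The aligner, the counter, the annotation and the strand setting are not given in the sources used here. As deposited, the authors' files hold raw counts per gene and FPKM, in which counts are divided by gene length and library total. The counts were tested here with edgeR 4.0.16 (R 4.3.3, limma 3.58.1): TMM scaling, filterByExpr, and a quasi-likelihood fit of 7 days over 28 libraries with 21 residual degrees of freedom. Adjusted p are Benjamini-Hochberg values over 18107 genes, called under 0.05. Each day was compared with Day0 and with the day before. FPKM describe levels, and log2 CPM has a prior count of 2. Ratios to collagen counts (0.5 added) and family shares were compared by exact two-sided permutation tests. The members are all named. Other genes are named as the highest or lowest of a list on a day, as the 3 with the highest r, or, after their values were seen, for their role. Members and lists were chosen with earlier results of these data known. Alternatives were other scalings and filters, DESeq2 1.42.0, limma-voom, limma on log2(FPKM + 1) and log2(FPKM + 0.1), the 8 libraries of a comparison alone, a replicate block, leaving out each library and, chosen after seeing the data, each Day0 pair, for the members and 3 lists. The scripts were tested on simulated data. No libraries were duplicates: the lowest median chi-square within a day was 1.46, against 0.455 for sampling noise. Totals of 36706513 to 40655764 counts leave counting error small for the members.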

Additional observations from a re-analysis of the deposited data

Results flagged for a closer look

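In 70 groups of 4 libraries (10 genes on 7 days), 3 had a library standing apart by the gap between it and its nearest neighbour, and chance gives about 3.5. Loxl2 was at 8.10 log2 CPM in day 7 replicate 4, with the other 3 libraries between 8.20 and 8.21. Plod1 was at 6.36 log2 CPM in Day0 replicate 4, with the others between 6.60 and 6.65. In day 10 replicate 3, Plod1 was at 7.04 log2 CPM, with the others between 6.88 and 6.91.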

How the results depend on the processing

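Of 110 pairs of member and comparison, 74 kept their direction and their side of the threshold in every alternative fit other than the Day0 pairs, and 13 changed sign in at least 1 of these, or 19 with the Day0 pairs included. The criteria of the study were applied only to the counts of members and do not enter these figures. The cause of the changes below was not tested. Under the criteria of the study, 3, 3, 2, 2, 0 and 0 members were higher than Day0 on days 3 to 14 and 0 lower on day 14. Between neighbouring days 0 members passed those criteria in either direction. With the 8 libraries alone, 3 were higher on day 12, 1 was lower from day 3 to 5, and 2 were higher and 5 lower from day 7 to 10. limma-voom also gave 5 lower there. limma on FPKM of at least 1 gave 2 higher on day 14. Without a filter 1 was higher from day 3 to 5, and 1 was lower with DESeq2 size factors, DESeq2, limma-voom and limma on FPKM of at least 1. Day0 replicates 2 and 3 gave 1 lower on day 10 and 3 on day 12, and replicates 1 and 4 gave 4 higher on day 14. With library size as the only scaling, the median of all genes shifted to 0.11 on day 12, and with the upper quartile to -0.12 on day 3.

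The replicate block, a term for the replicate number, left all 24 counts as they were, for example 9 higher on day 3 and 5 lower on day 14. All 110 values kept sign and side. The numbers did not pair the libraries: same-numbered libraries of different days had a median r of -0.00091 (range -0.076 to 0.18), with 1 of 84 above 0.1.

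Leaving out 1 library gave 8 to 9 members higher on day 10, 4 to 6 higher and 0 to 2 lower on day 12, and 1 to 2 higher and 5 to 6 lower on day 14. Steps gave 1 to 2 higher and 0 to 1 lower to day 5, 0 to 1 higher and 2 to 3 lower to day 10, 0 to 1 higher to day 12, and 7 to 8 lower to day 14. Without Day0 replicate 4, Plod1 and P4ha1 became lower on day 12 (-0.13 and -0.24) and Serpinh1 on day 14 (-0.37). Without Day0 replicate 2, Loxl2 became higher on day 14 (0.28), and without Day0 replicate 1, Loxl3 on day 12 (0.30) and Plod3 on day 14 (0.17) did. Loxl3 did so on day 12 also without day 12 replicate 2 (0.25). Values whose sign turned this way ranged, for Loxl4, from -0.044 to 0.24 on day 5, -0.066 to 0.24 on day 7, -0.21 to 0.090 on day 10, -0.18 to 0.016 from day 3 to 5 and -0.11 to 0.063 from day 5 to 7. The ranges were -0.088 to 0.056 for Plod3 on day 12, -0.047 to 0.17 on day 14 and -0.0073 to 0.10 from day 12 to 14. They were -0.038 to 0.33 for Serpinh1 on day 12, -0.0071 to 0.052 for Serpinh1 from day 7 to 10, -0.093 to 0.16 for Loxl1 on day 14 and -0.064 to 0.0084 for Lox from day 3 to 5.

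Sign changes with Day0 replicates 2 and 3 were Loxl4 at -0.088, -0.17 and -0.18 on days 3, 5 and 7, P4ha1 at -0.066 on day 10, Serpinh1 at -0.30 on day 12, and Loxl1 at -0.28 and Loxl2 at -0.15 on day 14. With replicates 1 and 4 they were Loxl4 at 0.32 on day 10, Plod1 at 0.0091 and P4ha1 at 0.081 on day 12, and Lox at 0.056 and Serpinh1 at 0.46 on day 14. Scale and test turned only values near 0. With library size only, Loxl4 was 0.015 on day 10 and 0.032 from day 5 to 7, Plod1 0.056 and Plod3 0.10 on day 12, and Lox 0.0068 from day 3 to 5. limma on log2(FPKM + 1), with or without the filter, gave 0.047, 0.031, 0.058, 0.10 and 0.0067 for the same 5, and log2(FPKM + 0.1) gave 0.065, 0.037, 0.060, 0.11 and 0.0067. The upper quartile gave 0.025 for Lox from day 3 to 5 and 0.042 for Loxl4 from day 5 to 7. limma-voom gave 0.0043 for Loxl4 on day 10. A minimum of 10 counts in every library gave -0.0092 for Loxl1 on day 14 and 0.0027 for Loxl4 from day 5 to 7.

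Depth was even across libraries.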
